A study of Zea mays with 6 samples.

Results

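The genes described here encode the enzymes of the ascorbate-glutathione cycle of maize (Zea mays) leaves, together with the oxidases that make superoxide, the enzymes that build ascorbate, glutathione and tocopherol, and the methionine sulfoxide reductases. Membership was decided by words in the gene name or description of the deposited table, with no use of expression: 12 search terms such as "ascorbate peroxidase", "dehydroascorbate", "glutathione reductase", "respiratory burst oxidase" and "tocopherol" matched 69 of its 45953 rows. By family these are 13 respiratory burst oxidases, 20 ascorbate peroxidases, 4 monodehydroascorbate reductases, 2 dehydroascorbate reductases, 2 glutathione reductases, 7 glutathione peroxidases, 5 genes of ascorbate synthesis, 9 of glutathione synthesis, 1 tocopherol cyclase and 6 methionine sulfoxide reductases. They lie on all 10 chromosomes. The members were chosen with earlier results of these data known.

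Leaves were sampled from maize under drought whose water came without interruption by negative pressure irrigation (LW, 3 libraries) and from maize in moist soil under drip irrigation (CW, 3 libraries). The irrigation method and the soil water differed together and cannot be told apart. Genotype, age and growth stage were not given in the sources used here, and nothing in them says that replicates came from separate plants, so p-values measure a spread between libraries that may be partly technical. Estimated counts summed to 62327457 to 84084375 in LW libraries and to 42927751 to 64067543 in CW libraries.

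Leaf markers were present in every library: of 27 genes for Rubisco small subunit, phosphoenolpyruvate carboxylase1, pyruvate, orthophosphate dikinase, NADP-malic enzyme and chlorophyll a-b binding proteins, 21 were tested and 4 had no count in any library, and their summed level was 8874 to 13466 CPM in LW libraries and 39327 to 71070.4 CPM in CW libraries. CPM are counts per 1000000 on library sizes scaled by TMM, a factor that sets most genes equal between libraries. Of 32 seed and pollen markers, 23 had no count, among them 15 of 18 zeins, and the rest summed to 12.3 to 23.5 CPM in LW libraries and 15.2 to 24.5 CPM in CW libraries. The chlorophyll a-b binding genes alone, 15 in number, summed to 3655 to 6196 CPM in LW libraries and 25872 to 39950.3 CPM in CW libraries, and those for Rubisco small subunit to 894 to 1850.2 CPM in LW libraries and 4404 to 25137 CPM in CW libraries, both with every LW library below every CW library. The groups overlapped in phosphoenolpyruvate carboxylase1 (555 to 3589.7 CPM in LW and 1014 to 1876 CPM in CW), pyruvate, orthophosphate dikinase (2268 to 4463 CPM in LW and 4299 to 6767 CPM in CW) and NADP-malic enzyme (176 to 292 CPM in LW and 125 to 408 CPM in CW). In bulk leaf RNA, fewer cells of a type and less RNA per cell cannot be told apart.

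Plant cells make hydrogen peroxide and superoxide in chloroplasts, peroxisomes, mitochondria and at the cell surface. Respiratory burst oxidases, NADPH oxidases of the plasma membrane, make superoxide outside the cell as a signal in stress responses, immunity and stomatal closure. Ascorbate peroxidase reduces hydrogen peroxide to water with ascorbate, monodehydroascorbate reductase and dehydroascorbate reductase return the oxidised ascorbate to its reduced form, and glutathione reductase regenerates the glutathione that dehydroascorbate reductase consumes. Glutathione peroxidases of plants reduce lipid and hydrogen peroxides, largely with thioredoxin as electron donor. Methionine sulfoxide reductases repair oxidised methionine in proteins, and tocopherol protects thylakoid lipids.

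Of the 69 genes, 53 had enough counts to be tested; 9 had no count in any library and 7 had too few. By the quasi-likelihood test of edgeR, with p-values adjusted by Benjamini-Hochberg over all 24704 tested genes, 5 of the 53 were higher in LW at an adjusted p under 0.05 (9.43%), where 2.84% of all tested genes were. A single gene was lower in LW (1.89%), near the 2.4% of all tested genes. The 5 that rose were 2 respiratory burst oxidases, 1 ascorbate peroxidase, the cytosolic glutathione reductase and 1 glutathione peroxidase. The gene that fell is described as a chloroplastic and mitochondrial ascorbate peroxidase. On TMM-scaled CPM, all 3 LW values lay above all 3 CW values in 16 of the 53 genes (30.2%, against 19.7% of all tested genes). They lay below in 10 (18.9%, against 14.9%), and the groups overlapped in the other 27. The 16 include Zm00001d007569 and Zm00001d007430, near 0 in CW, which passed the count filter through their LW libraries. The median log2 fold change of the 53 was 0.46, and that of all tested genes 0.06.

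**Figure D1:**
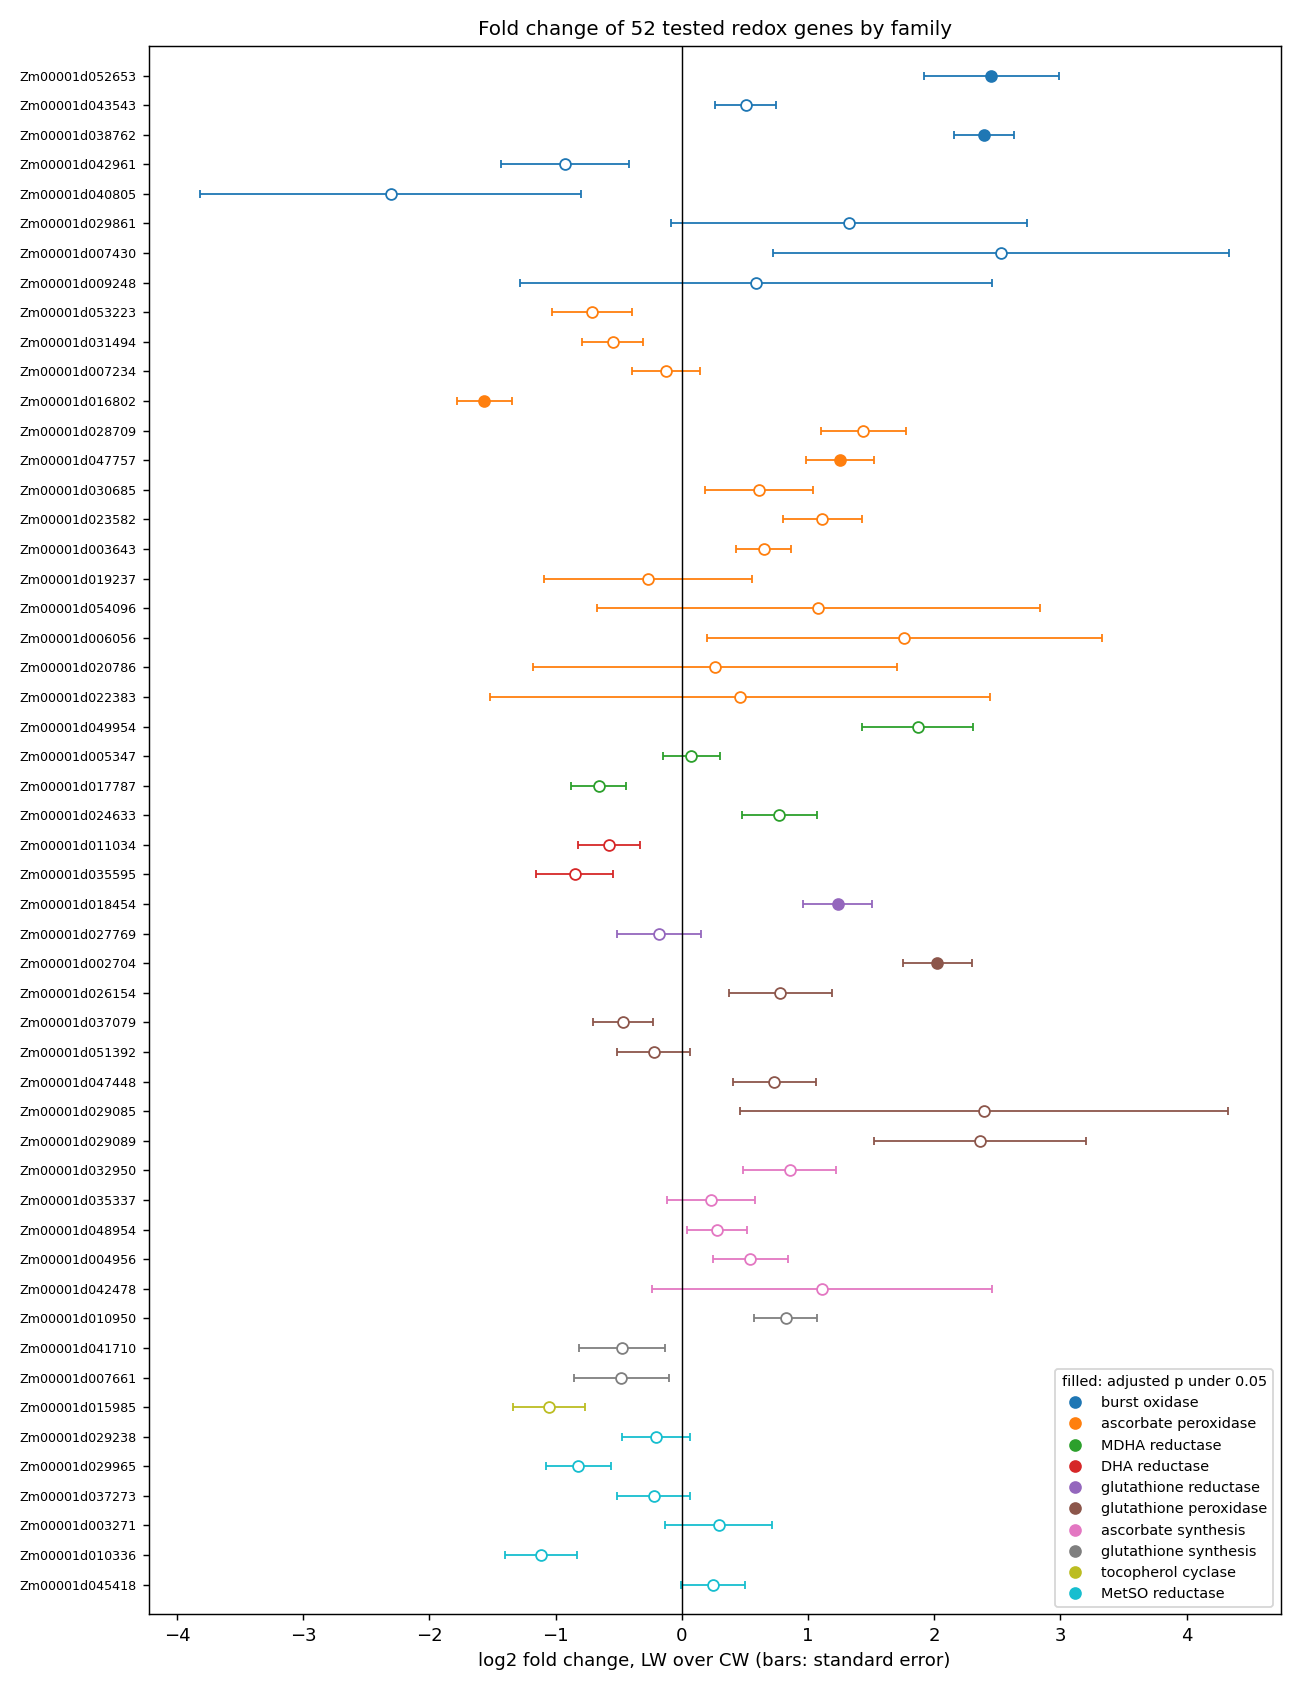
Log2 fold change of LW over CW (x axis, edgeR fit, bars are standard errors) for 52 tested genes, ordered down the page by family; filled points have an adjusted p under 0.05. Zm00001d007569, with no count in CW, has no finite fold and is not drawn. Of the filled points, 5 lie right of 0 and 1 lies left, at -1.57, and most families hold points on both sides.

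How many of these genes pass the threshold depended on the tool, the scaling and the library set. DESeq2 called 11 of the 53 higher and 5 lower, where it called 18.0% of all tested genes in either direction. Scaled by library totals, edgeR called 10 higher and 1 lower among them and 1425 higher and 346 lower among all genes, against 701 and 592 with TMM. That scaling moved the median of all tested genes to 0.42 and of the 53 to 0.81, and turned the sign of 6 of them. With 1 library left out, edgeR called 12.0% of all tested genes without CW replicate 3, 0.98% without CW replicate 1, 0.0243% without LW replicate 1, 0.0162% without LW replicate 2, 0.00405% without LW replicate 3 and 0.0% without CW replicate 2. Among the 53 genes it called 5 higher and 3 lower without CW replicate 3, 4 higher and 0 lower without CW replicate 1, and 0 in either direction in each of the other 4 fits. With all libraries, 13 of the 53 were higher (24.5%) and 7 lower (13.2%) at an unadjusted p under 0.05, where 13.3% and 11.4% of all tested genes were, so the share lower was near the background. In those 4 fits 10 to 14 of the 53 were higher at that threshold (18.9% to 26.4%, against 9.41% to 11.8% of all tested genes) and 3 to 8 lower (5.66% to 15.1%, against 7.86% to 9.56%).

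**Figure D2:**
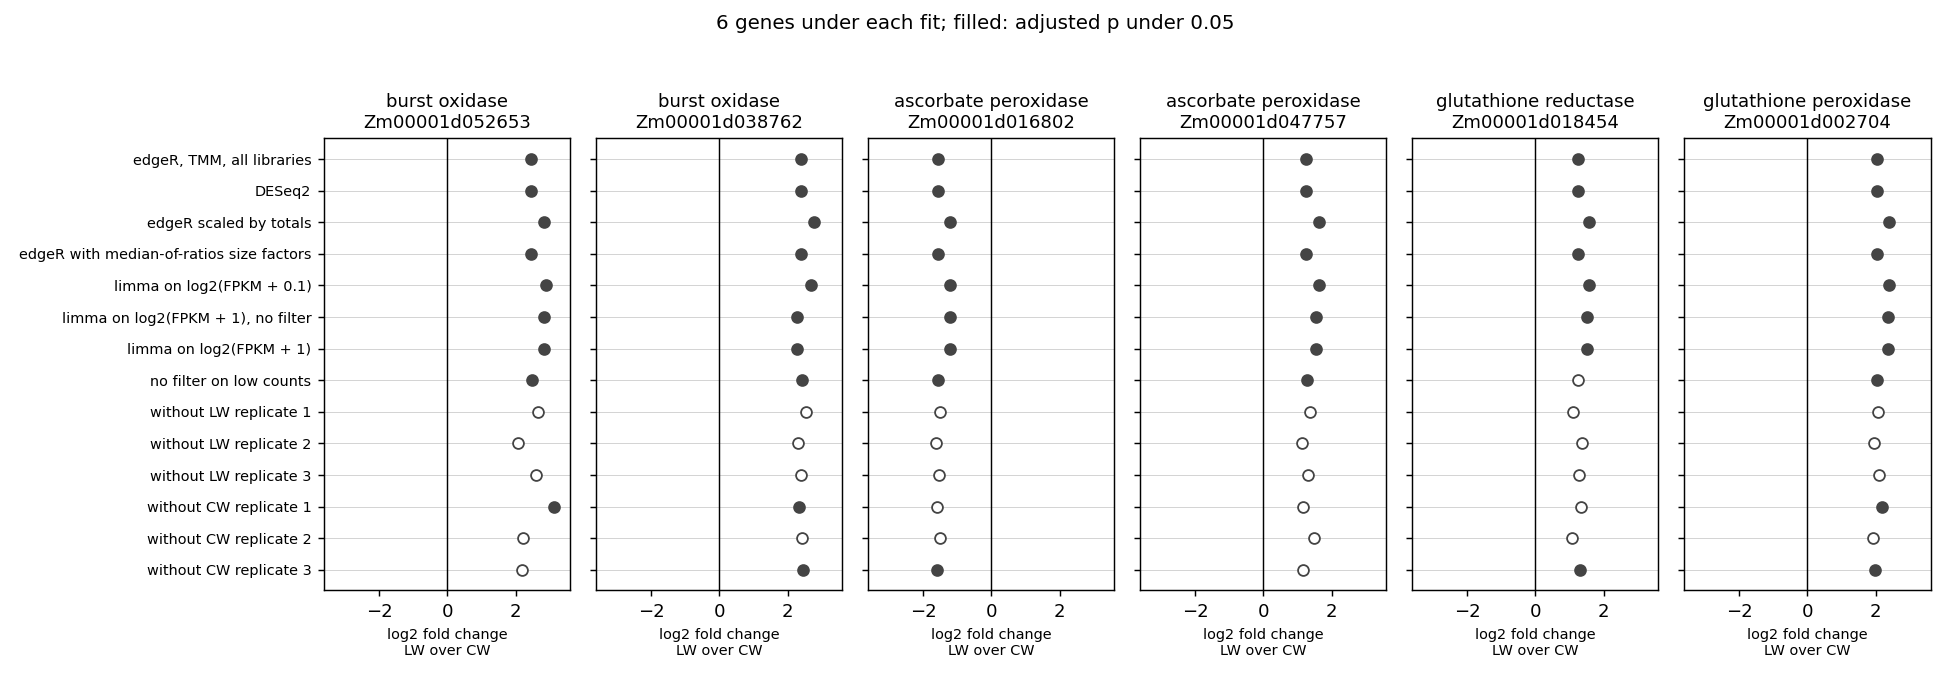
Log2 fold change of LW over CW (x axes) of the 6 genes called with all libraries, under each of 14 fits (rows); filled points have an adjusted p under 0.05. Each plotted fit put each gene on the same side of 0, and all 6 points are open in the rows without LW replicate 1, 2 or 3 and without CW replicate 2.

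Among respiratory burst oxidases, respiratory burst oxidase4 and respiratory burst oxidase3 rose in LW, each by about 5-fold. The family's summed level was 567, 896 and 569 CPM in the LW libraries, against 252, 172 and 167 CPM in the CW libraries, 3.44-fold higher on the means. All LW sums lay above all CW sums, and respiratory burst oxidase4 made up most of the family in the LW libraries. Of 13 genes, 8 were tested, and 2 were called higher (25.0%, against 2.84% of all tested genes) and none lower. In 4 every LW value was above every CW value (50.0%, against 19.7%). Zm00001d007430 is among the 4. With no count in CW replicates 1 and 2, it passed the count filter through its LW libraries, so it adds little to this share. Of the untested 5, 2 had no count in any library.

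Respiratory burst oxidase4 (Zm00001d052653, chromosome 4, 196008355 to 196012956 in the deposited table, whose genome build is not given in the sources used here) had 322, 658 and 339.6 CPM in the LW libraries, against 141, 52.4 and 47.9 CPM in the CW libraries. LW replicate 2 was the highest and CW replicate 1 stood above the other two CW libraries, and the groups did not overlap. The means were 439.7 ± 189 CPM in LW and 80.4 ± 52.4 CPM in CW (SD, n = 3 each), 5.47-fold higher (log2 fold change 2.45, SE 0.54, edgeR adjusted p = 0.0475). The adjusted p in edgeR was 0.0498 with CW replicate 1 left out, and the call was lost without CW replicate 2, CW replicate 3, LW replicate 1, LW replicate 2 or LW replicate 3 (adjusted p 0.0571 to 0.145), at a log2 fold change of 2.06 to 3.13 over the 6 fits. In FPKM, which divides by gene length and so allows genes to be compared, it supplied 70.6%, 83.8% and 73.8% of the family's sum in the LW libraries and 66.6%, 42.5% and 38.7% in the CW libraries. CW replicate 1 came near the LW libraries in this share.

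Respiratory burst oxidase3 (Zm00001d038762, chromosome 6, 164016293 to 164027578) had 94.98, 132 and 117 CPM in the LW libraries, against 19.9, 22.1 and 23.3 CPM in the CW libraries. The CW values lay close together and the lowest LW value was far above them. The means were 115 ± 18.6 CPM in LW and 21.8 ± 1.70 CPM in CW (SD, n = 3 each), 5.27-fold higher (log2 fold change 2.40, SE 0.24, edgeR adjusted p = 0.0192). The adjusted p in edgeR was 0.0487 with CW replicate 1 left out and 0.0162 with CW replicate 3 left out, and the call was lost without CW replicate 2, LW replicate 1, LW replicate 2 or LW replicate 3 (adjusted p 0.0558 to 0.0939), at a log2 fold change of 2.31 to 2.54 over the 6 fits. Per length it stayed a minor member, at 13.8 ± 3.20 FPKM in LW and 2.04 ± 0.200 FPKM in CW.

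The remaining oxidases gave no call. Respiratory burst oxidase2 (Zm00001d043543) had 138, 93.2 and 103 CPM in the LW libraries, against 72.5, 86.1 and 76.9 CPM in the CW libraries. Every LW value was above every CW value, by a small margin (log2 fold change 0.51, SE 0.24, edgeR adjusted p = 0.251). It made up 11.9% ± 5.14 of the family's FPKM in LW and 30.7% ± 10.4 in CW. Respiratory burst oxidase1 (Zm00001d042961) had 9.92, 4.64 and 4.33 CPM in the LW libraries and 13.6, 6.11 and 16.2 CPM in the CW libraries, and the groups overlapped (log2 fold change -0.93, SE 0.51, edgeR adjusted p = 0.309). The other members, described as homologs B, C, H and I, stayed at or under 5.48 CPM in every library, a value that Zm00001d023859, not tested, had in LW replicate 2. The 3 homologs C (Zm00001d007421, Zm00001d007426 and Zm00001d007430) lie near each other on chromosome 2, between 231301639 and 231537684. One of them, Zm00001d007430, had 0.776, 0.591 and 1.39 CPM in the LW libraries and 0, 0 and 0.464 CPM in the CW libraries. With no count in CW replicates 1 and 2 the groups did not overlap, and of the edgeR fits with 1 library left out, the one without CW replicate 3 called it higher (adjusted p = 0.0413), a fit in which CW had no count of it and no fold can be given.

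Among ascorbate peroxidases, 1 gene rose and 1 fell, and the family's sum differed little. The sums were 1153, 963 and 1068 CPM in the LW libraries, against 1083, 1139 and 1179 CPM in the CW libraries, a ratio of 0.937 with TMM that turned to 1.20 when scaled by totals. The sums overlapped between the groups. Of 20 genes, 15 were tested, and 1 was called higher and 1 lower (6.67% each, against 2.84% and 2.4% of all tested genes). In 5 every LW value was above every CW value (33.3%, against 19.7%) and in 3 below (20.0%, against 14.9%). Of the 5, Zm00001d007569 had no count in CW and passed the count filter only through LW, so its place was fixed by the filter. Of the untested 5, 2 had no count in any library and the rest, a peroxisomal gene (Zm00001d025047) among them, had too few counts. By share of the family's FPKM, given without a test, the most abundant peroxisomal and chloroplastic members were smaller in LW, and the members described as homologs of ascorbate peroxidase larger.

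Zm00001d016802 (chromosome 5, 176496325 to 176501360), described as ascorbate peroxidase S of chloroplasts and mitochondria, had 59.9, 71.4 and 62.6 CPM in the LW libraries, against 182, 207 and 184 CPM in the CW libraries. Every LW value was under the lowest CW value by a wide margin, and the libraries of each group lay close together. The means were 64.6 ± 5.98 CPM in LW and 191 ± 14.1 CPM in CW (SD, n = 3 each), 2.96-fold lower (log2 fold change -1.57, SE 0.22, edgeR adjusted p = 0.0228). The adjusted p in edgeR was 0.0202 with CW replicate 3 left out, and the call was lost without CW replicate 1, CW replicate 2, LW replicate 1, LW replicate 2 or LW replicate 3 (adjusted p 0.0519 to 0.120), at a log2 fold change of -1.62 to -1.49 over the 6 fits. Among the 69 genes it ranked 20th by mean FPKM in LW and 5th in CW. The 15 chlorophyll a-b binding genes were lower in the same libraries (3655 to 6196 CPM in LW and 25872 to 39950.3 CPM in CW), and their part in this result was not tested.

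The table describes 2 other genes in the same words, ascorbate peroxidase S, and both had positive fitted values. Zm00001d023582 had 26.3, 23.9 and 26.8 CPM in the LW libraries, against 7.51, 13.3 and 14.7 CPM in the CW libraries. Zm00001d003643 had 36.1, 45.6 and 41.9 CPM in the LW libraries, against 25.2, 28.3 and 25.3 CPM in the CW libraries. Both had every LW value above every CW value without passing edgeR's threshold (log2 fold changes 1.11, SE 0.31, and 0.65, SE 0.22; adjusted p = 0.0819 and 0.120); DESeq2 called both (adjusted p = 0.0178 and 0.0391). Per length both were minor beside the gene that fell, with 17.3 ± 0.886 FPKM in LW and 6.26 ± 2.08 FPKM in CW for Zm00001d023582 and 14.6 ± 2.72 FPKM in LW and 7.26 ± 0.285 FPKM in CW for Zm00001d003643, where Zm00001d016802 had 37.8 ± 6.16 FPKM in LW and 87.2 ± 4.05 FPKM in CW (SD, n = 3 each).

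Zm00001d047757 (chromosome 9, 141020616 to 141024529), described as an ascorbate peroxidase homolog, had 107, 141 and 109 CPM in the LW libraries, against 42.00, 64.1 and 43.2 CPM in the CW libraries. LW replicate 2 and CW replicate 2 were each the highest of their group, and the groups did not overlap. The means were 119 ± 19.1 CPM in LW and 49.8 ± 12.4 CPM in CW (SD, n = 3 each), 2.39-fold higher (log2 fold change 1.26, SE 0.27, edgeR adjusted p = 0.0451). With any 1 of the 6 libraries left out, edgeR's adjusted p ran from 0.0545 to 0.156, so no such fit called the gene, at a log2 fold change of 1.14 to 1.48. Another such gene, ascorbate peroxidase homolog3 (Zm00001d028709), had 314, 259.9 and 258 CPM in the LW libraries, against 74.04, 82.3 and 150.5 CPM in the CW libraries. All its LW values were above its CW values, of which CW replicate 3 was the highest. It missed the threshold with all libraries (log2 fold change 1.44, SE 0.33, edgeR adjusted p = 0.0551) and passed it without CW replicate 3 and in DESeq2 (adjusted p = 0.0202 and 0.000923). Its share of the family's FPKM was 15.7% ± 1.36 in LW and 4.63% ± 1.78 in CW.

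The most abundant ascorbate peroxidase over all libraries was Zm00001d053223, described as the peroxisomal enzyme. It had 319.7, 167 and 309.9 CPM in the LW libraries, against 452, 448 and 401 CPM in the CW libraries. LW replicate 2 was the lowest, and all LW values lay below all CW values, but the difference did not pass (log2 fold change -0.71, SE 0.32, edgeR adjusted p = 0.221). Per length it had 201 ± 55.7 FPKM in LW and 260.2 ± 11.6 FPKM in CW, the highest of the 69 genes in CW. Zm00001d031494, a putative ascorbate peroxidase, had 97.1, 141 and 111 CPM in the LW libraries, against 173, 159.6 and 178 CPM in the CW libraries, again with every LW value below (edgeR adjusted p = 0.210). In FPKM its groups overlapped (63.2, 106 and 78.4 in LW, 95.5, 84.9 and 102 in CW). Ascorbate peroxidase2 (Zm00001d007234) had 123, 74.4 and 104 CPM in the LW libraries and 97.7, 101 and 130.1 CPM in the CW libraries, and the groups overlapped (edgeR adjusted p = 0.816).

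A further 11 genes carry the description of a cytosolic ascorbate peroxidase: 7 were tested, none was called, and 2 had no count in any library. The highest of them, Zm00001d030685, had 53.8, 17.6 and 41.3 CPM in the LW libraries and 18.1, 24.9 and 30.9 CPM in the CW libraries (edgeR adjusted p = 0.432). LW replicate 2 was its lowest library, so the groups overlapped. Zm00001d007569 had 0.396, 0.208 and 0.177 CPM in the LW libraries and no count in any CW library; levels this close to 0 give no fold. Near-identical copies among these genes could not be looked for, since no sequence was used here, and reads may be divided among them.

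Among monodehydroascorbate reductases, which use NAD(P)H to reduce the ascorbate radical, no gene was called in edgeR. Zm00001d049954 (chromosome 4, 55307251 to 55311651), described as peroxisomal, had 377, 282 and 267 CPM in the LW libraries, against 142, 57.5 and 53.3 CPM in the CW libraries. CW replicate 1 was well above the other CW libraries and still under every LW library. Means of 309 ± 59.6 CPM in LW and 84.4 ± 50.3 CPM in CW (SD, n = 3 each) gave a log2 fold change of 1.87 (SE 0.44, edgeR adjusted p = 0.0563). The gene passed without CW replicate 1 (adjusted p = 0.0491 in edgeR) and in DESeq2 (adjusted p = 0.000644). By FPKM it ranked 3rd of the 69 genes in LW and 16th in CW, and it supplied 53.3% ± 4.86 of its family's FPKM in LW and 21.9% ± 9.48 in CW.

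The other peroxisomal gene, Zm00001d017787, lay on the other side: 97.9, 86.1 and 93.4 CPM in the LW libraries, against 143, 131 and 164 CPM in the CW libraries. No LW value reached the lowest CW value, but edgeR did not call it (log2 fold change -0.66, SE 0.22, adjusted p = 0.116), while DESeq2 did (adjusted p = 0.0197). Zm00001d005347, monodehydroascorbate reductase homolog1, had 309, 276 and 285 CPM in the LW libraries and 289, 276 and 260.2 CPM in the CW libraries. These ranges overlapped and the fitted log2 fold change was 0.08 (SE 0.22, edgeR adjusted p = 0.871). In FPKM the groups of this gene did not overlap (79.03, 81.61 and 79.24 in LW, 62.87, 57.69 and 58.3 in CW). The mitochondrial member Zm00001d024633 had 67.7, 62.5 and 111 CPM in the LW libraries, against 50.9, 38.2 and 52.1 CPM in the CW libraries, with LW replicate 3 apart at the top (edgeR adjusted p = 0.165).

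Dehydroascorbate reductases are the enzymes that spend glutathione to recover ascorbate. On TMM-scaled CPM, both had every LW value below every CW value, as did 14.9% of all tested genes, and neither was called. Dehydroascorbate reductase like1 (Zm00001d011034) had 154, 111 and 122 CPM in the LW libraries, against 182, 219.8 and 177 CPM in the CW libraries (log2 fold change -0.58, SE 0.24, edgeR adjusted p = 0.199). Dehydroascorbate reductase like3 (Zm00001d035595) had 40.8, 35.1 and 39.9 CPM in the LW libraries, against 85.4, 80.4 and 42.8 CPM in the CW libraries (log2 fold change -0.85, SE 0.30, edgeR adjusted p = 0.141). CW replicate 3 came down almost to the LW level in the like3 gene, and without it edgeR called the gene lower (adjusted p = 0.0324). In FPKM, which has no TMM factor, the like3 gene had 29.05 in CW replicate 3, below its LW libraries (31.59, 31.4 and 33.57). The summed monodehydroascorbate reductases were 1.40-fold higher on the means, and the summed dehydroascorbate reductases 1.56-fold lower. Scaled by totals, the ratios of LW to CW were 1.78 and 0.817.

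**Figure D3:**
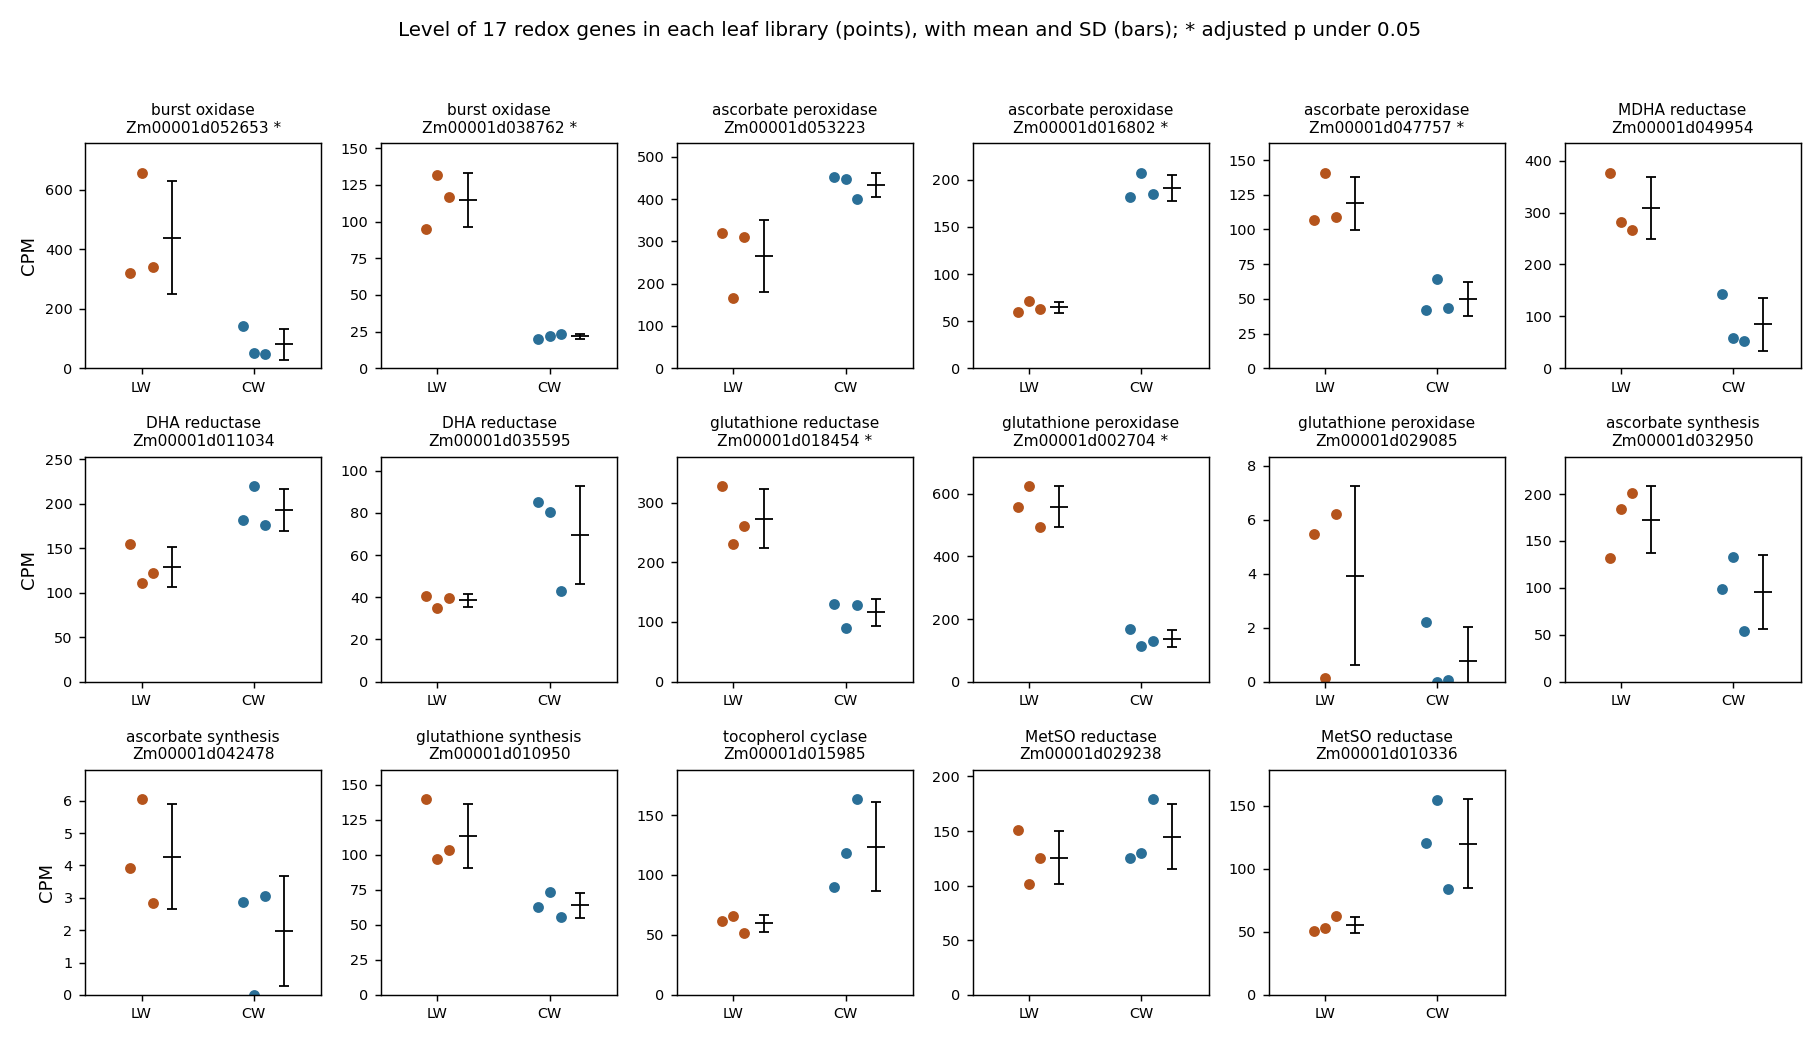
Level in CPM (y axes, linear, each starting at 0) of 17 genes in the 3 LW and 3 CW leaf libraries (points) with mean and SD (bars, cut off at 0); an asterisk marks an adjusted p under 0.05. In the 6 marked panels the LW and CW points do not overlap, and the only marked panel with LW below CW is Zm00001d016802.

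Of the 2 glutathione reductases, which use NADPH to regenerate glutathione, the cytosolic one rose in LW and the chloroplastic one was not called; the difference between them was not tested. The cytosolic gene Zm00001d018454 (chromosome 5, 221144871 to 221153975) had 328, 231 and 261 CPM in the LW libraries, against 129.9, 90.7 and 128 CPM in the CW libraries. Its lowest LW value, in replicate 2, was above its highest CW value. The gene rose 2.35-fold, with 274 ± 49.6 CPM in LW and 116 ± 22.2 CPM in CW (SD, n = 3 each; log2 fold change 1.23, SE 0.27, edgeR adjusted p = 0.0484). The adjusted p in edgeR was 0.0462 with CW replicate 3 left out, and the call was lost without CW replicate 1, CW replicate 2, LW replicate 1, LW replicate 2 or LW replicate 3 (adjusted p 0.0938 to 0.167), at a log2 fold change of 1.08 to 1.36 over the 6 fits. It was also not called when no filter on low counts was used (adjusted p = 0.0522). Glutathione reductase1 (Zm00001d027769), described as chloroplastic, had 70.7, 52.00 and 68.6 CPM in the LW libraries and 61.9, 106 and 49.02 CPM in the CW libraries. CW replicate 2 was its highest and CW replicate 3 its lowest library, so the groups overlapped, and its fitted log2 fold change of -0.18 (SE 0.33, edgeR adjusted p = 0.779) changed sign when scaled by totals.

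The cytosolic gene supplied 73.1%, 72.2% and 69.04% of the FPKM of the 2 reductases in the LW libraries and 55.2%, 33.3% and 60.5% in the CW libraries. All LW shares were above all CW shares, but CW replicate 2 alone lay far below the other CW libraries. Shares are given without a test, because with 3 libraries a group no exact test can reach a p below 0.1.

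Of 7 glutathione peroxidases, 1 was called higher (14.3%, against 2.84% of all tested genes) and none lower. In 3 every LW value was above every CW value (42.9%, against 19.7%) and in 1 below (14.3%, near the 14.9% of all tested genes). Zm00001d002704 (chromosome 2, 19808074 to 19812687) had 559, 625 and 495 CPM in the LW libraries, against 168, 115 and 129.97 CPM in the CW libraries. The groups were far apart compared with the spread within either. The means were 559.6 ± 65.2 CPM in LW and 138 ± 27.2 CPM in CW (SD, n = 3 each), 4.07-fold higher (log2 fold change 2.02, SE 0.27, edgeR adjusted p = 0.0219). The adjusted p in edgeR was 0.0498 with CW replicate 1 left out and 0.0237 with CW replicate 3 left out, and the call was lost without CW replicate 2, LW replicate 1, LW replicate 2 or LW replicate 3 (adjusted p 0.0618 to 0.108), at a log2 fold change of 1.91 to 2.19 over the 6 fits. At 241 ± 40.2 FPKM it had the highest mean of the 69 genes in LW, and at 46.3 ± 9.68 FPKM it ranked 13th in CW. Its share of the family's FPKM was 49.3% ± 2.95 in LW and 22.3% ± 5.13 in CW.

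None of the family's other members was called in edgeR. Zm00001d037079 had 85.3, 70.7 and 71.5 CPM in the LW libraries, against 101, 126 and 86.4 CPM in the CW libraries, with every LW value below (log2 fold change -0.46, SE 0.24, edgeR adjusted p = 0.283). In FPKM its groups overlapped (70.8, 67.8 and 64.6 in LW, 71.4, 85.6 and 62.8 in CW). Zm00001d026154 had 85.02, 102 and 91.3 CPM in the LW libraries, against 84.8, 49.9 and 27.01 CPM in the CW libraries, where CW replicate 1 almost reached the lowest LW library (edgeR adjusted p = 0.284). Zm00001d051392 had 34.3, 32.1 and 35.4 CPM in the LW libraries and 48.3, 45.1 and 25.6 CPM in the CW libraries (edgeR adjusted p = 0.682).

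Zm00001d047448 had 41.5, 75.8 and 63.6 CPM in the LW libraries and 29.7, 49.3 and 29.8 CPM in the CW libraries, with overlap (edgeR adjusted p = 0.223). In FPKM its groups did not overlap (18.27, 38.58 and 30.42 in LW, 11.07, 17.73 and 11.47 in CW). A neighbouring pair on chromosome 1, Zm00001d029085 and Zm00001d029089, is described as mitochondrial enzymes that reduce phospholipid hydroperoxides, and both were low. Zm00001d029085 had 5.48, 0.120 and 6.20 CPM in the LW libraries and 2.21, 0 and 0.0515 CPM in the CW libraries, and Zm00001d029089 had 3.96, 1.54 and 5.12 CPM in the LW libraries, against 1.37, 0.379 and 0.326 CPM in the CW libraries. LW replicate 2 was the lowest LW library in both, and edgeR called neither (adjusted p = 0.498 and 0.138); DESeq2 called Zm00001d029089 (adjusted p = 0.0338).

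**Figure D4:**
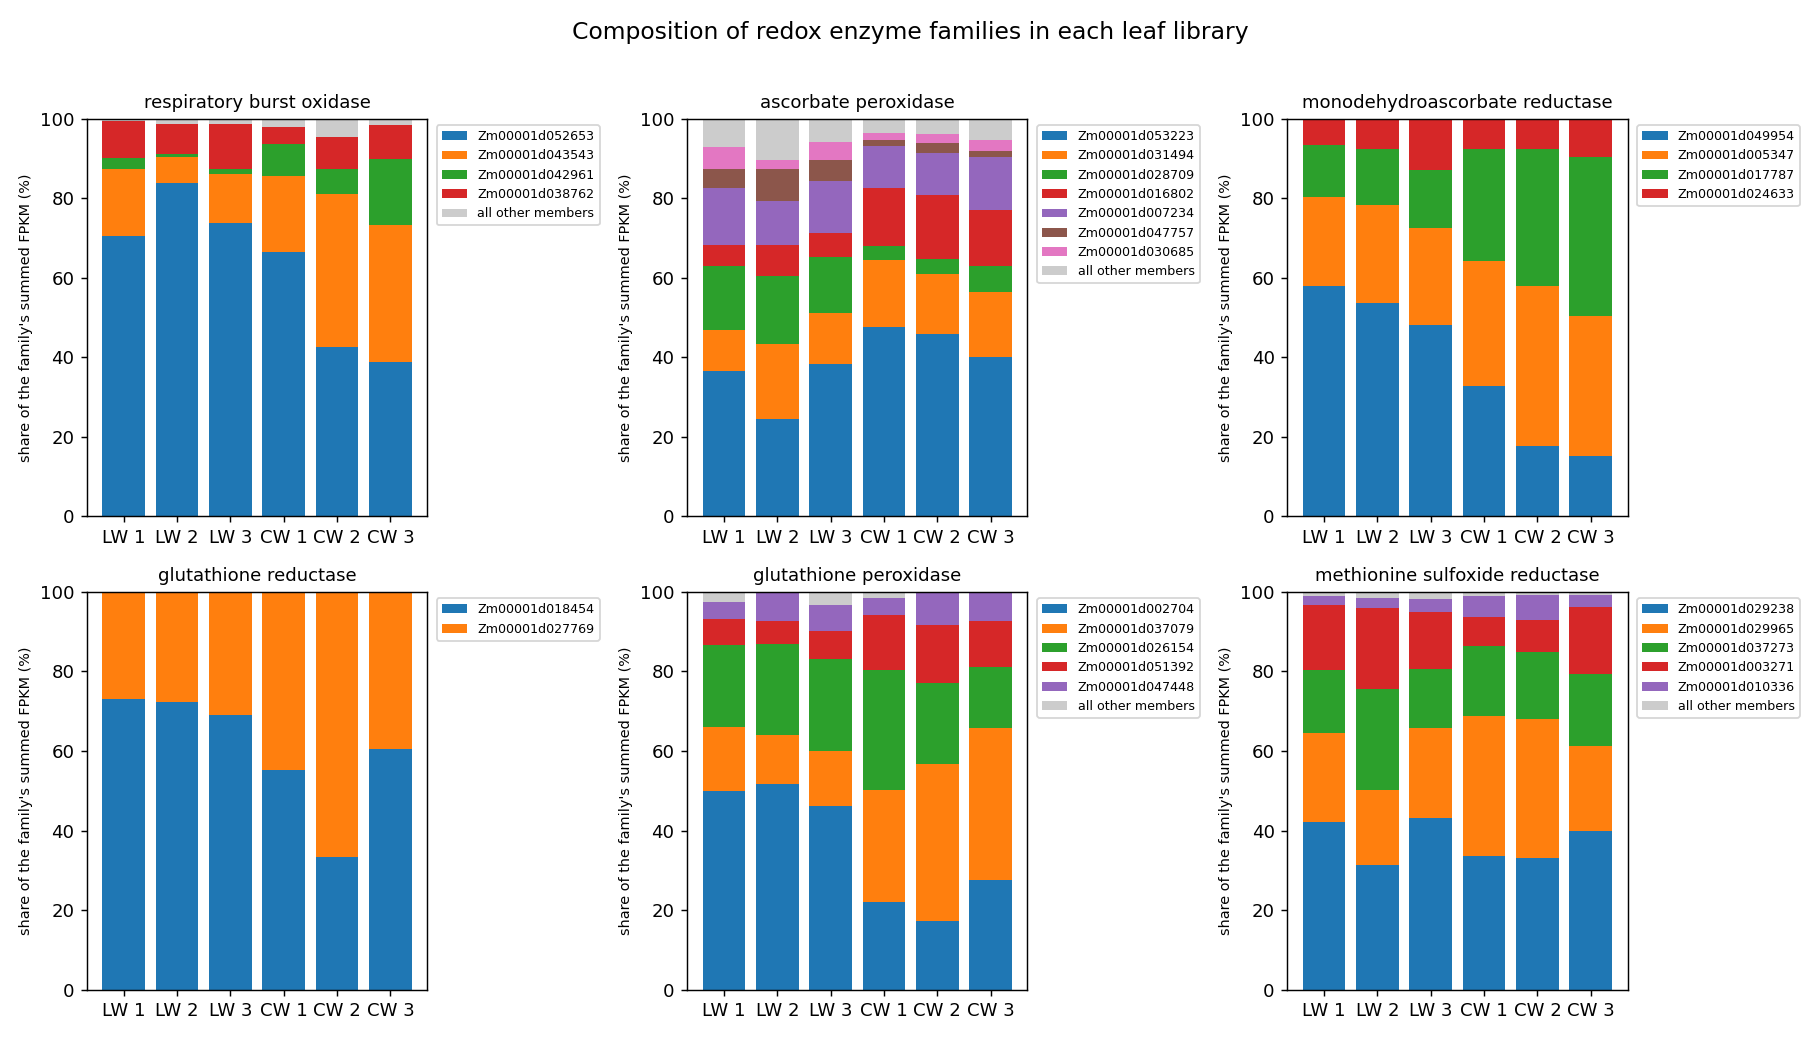
Share of each member in the summed FPKM of its family (y axes, percent) in each of 3 LW and 3 CW leaf libraries (bars), for 6 families; members that reach 5% in some library are named. The lowest segments, Zm00001d049954 in monodehydroascorbate reductases, Zm00001d018454 in glutathione reductases and Zm00001d002704 in glutathione peroxidases, are taller in every LW bar than in every CW bar.

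Enzymes of ascorbate synthesis gave no call. All 5 genes had a positive fitted log2 fold change, as did 12987 of all 24704 tested genes. On TMM-scaled CPM the groups overlapped in all 5, as in 16158 of all 24704. In FPKM, which has no TMM factor, every LW value of Zm00001d032950 (53.45, 86.11 and 88.38) lay above every CW value (33.97, 43.93 and 19.25). The same held in FPKM for Zm00001d048954, Zm00001d004956 and Zm00001d042478, and not for Zm00001d035337. GDP-mannose epimerase (Zm00001d032950), which makes GDP-L-galactose for the pathway, had 132, 184 and 201 CPM in the LW libraries and 99.1, 133 and 54.4 CPM in the CW libraries (log2 fold change 0.85, SE 0.37, edgeR adjusted p = 0.207). GDP-L-galactose phosphorylase, regarded as the main control point of the pathway, is encoded by Zm00001d035337, with 198, 98.4 and 141 CPM in the LW libraries and 132, 155 and 85.8 CPM in the CW libraries (edgeR adjusted p = 0.736). For both genes CW values in CPM lay inside the LW range.

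The other phosphorylase gene, Zm00001d042478, was low, with 3.93, 6.04 and 2.85 CPM in the LW libraries and 2.86, 0 and 3.06 CPM in the CW libraries (edgeR adjusted p = 0.660). Galactonolactone dehydrogenase (Zm00001d004956), the mitochondrial enzyme of the last step, had 23.8, 40.9 and 28.4 CPM in the LW libraries and 22.9, 16.5 and 24.6 CPM in the CW libraries, where CW replicate 3 lay just above the lowest LW library (edgeR adjusted p = 0.312). The other epimerase gene, Zm00001d048954, had 32.3, 34.2 and 27.5 CPM in the LW libraries and 24.5, 30.5 and 22.5 CPM in the CW libraries (edgeR adjusted p = 0.518). Summed, the 5 genes had 391, 364 and 401 CPM in the LW libraries, against 281, 336 and 190.4 CPM in the CW libraries, and CW replicate 3 was the lowest. The ratio of LW to CW was 1.43 on the means, and 1.84 scaled by totals.

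In glutathione synthesis, 3 of 9 genes were tested, 5 had no count in any library, 1 had a single count at most, and none was called. Glutamate-cysteine ligase, the rate-limiting enzyme of glutathione synthesis, is encoded by Zm00001d010950. It had 139.7, 96.8 and 104 CPM in the LW libraries, against 63.1, 73.5 and 55.6 CPM in the CW libraries. Every LW value was above every CW value (113 ± 23.00 CPM in LW and 64.1 ± 9.00 CPM in CW, SD, n = 3 each), and edgeR missed its threshold (log2 fold change 0.82, SE 0.25, adjusted p = 0.0956) where DESeq2 passed (adjusted p = 0.0235). The 2 tested glutathione synthetases, which catalyse the next step, had negative fitted values with overlap of the groups: Zm00001d041710 had 89.5, 37.2 and 55.5 CPM in the LW libraries and 93.8, 73.9 and 85.2 CPM in the CW libraries, and Zm00001d007661 had 7.20, 17.8 and 13.3 CPM in the LW libraries and 18.5, 20.3 and 14.6 CPM in the CW libraries (edgeR adjusted p = 0.444 and 0.484).

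The single tocopherol gene was sucrose export defective1 (Zm00001d015985, chromosome 5, 136805708 to 136822194), the maize tocopherol cyclase, whose mutant is known for a failure to export sucrose from its leaves. It had 61.6, 65.7 and 51.3 CPM in the LW libraries, against 89.8, 118 and 163 CPM in the CW libraries. All LW values were below all CW values, and the CW libraries were spread more widely than the LW libraries. The mean of 59.5 ± 7.40 CPM in LW against 124 ± 36.98 CPM in CW (SD, n = 3 each) did not pass edgeR's threshold (log2 fold change -1.05, SE 0.28, adjusted p = 0.0754) and passed that of DESeq2 (adjusted p = 0.00944).

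None of the 6 methionine sulfoxide reductases was called. In 2 of them every LW value was below every CW value (33.3%, against 14.9% of all tested genes), and in none above. Methionine sulfoxide reductase b2 (Zm00001d010336) had 50.4, 52.6 and 62.6 CPM in the LW libraries, against 120.04, 155 and 84.1 CPM in the CW libraries, and Zm00001d029965 had 127, 95.7 and 103 CPM in the LW libraries, against 207, 218 and 149 CPM in the CW libraries. Both had every LW value below every CW value (log2 fold changes -1.12, SE 0.28, and -0.82, SE 0.26; edgeR adjusted p = 0.0672 and 0.104). The b2 gene was called lower without CW replicate 3, its lowest CW library (edgeR adjusted p = 0.0292), and DESeq2 called both (adjusted p = 0.00614 and 0.0249). Zm00001d029965 overlaps the annotated gene Zm00001d029966, and since the sources used here do not say whether counting used strand, reads of the pair may be mixed.

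The most abundant methionine sulfoxide reductase, Zm00001d029238, of the B type, had 151, 101 and 125 CPM in the LW libraries and 125, 130.3 and 179 CPM in the CW libraries. The groups overlapped, and the fitted log2 fold change of -0.20 (SE 0.27, edgeR adjusted p = 0.687) turned positive when scaled by totals. Zm00001d003271 had 69.8, 78.6 and 49.3 CPM in the LW libraries and 33.02, 37.97 and 90.4 CPM in the CW libraries, where CW replicate 3 was the highest of all 6 and the other CW libraries the lowest (edgeR adjusted p = 0.722). Of the other members, Zm00001d037273 had 68.2, 98.1 and 51.6 CPM in the LW libraries and 78.1, 79.3 and 97.02 CPM in the CW libraries, and Zm00001d045418, of the A type, had 16.8, 22.5 and 22.5 CPM in the LW libraries and 19.8, 15.8 and 16.6 CPM in the CW libraries. Neither passed (edgeR adjusted p = 0.684 and 0.596).

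Grouped by the compartment named in their descriptions, the 8 tested cytosolic members held 1 called gene, which was higher, and the 8 tested chloroplastic members held 1, which was lower. The 6 mitochondrial members, which overlap with the chloroplastic ones, held the same lower gene, and the 3 tested peroxisomal members held none in edgeR. These labels come from the descriptions, and 2.84% of all tested genes were called higher and 2.4% lower, so a count of 1 among so few genes shows no difference between compartments.

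Among 70 related redox enzymes that the search terms do not cover, 58 were tested. None was called higher in edgeR, with 3 at an unadjusted p under 0.05. DESeq2 called 2 of the 58 higher, where it called 2421 of all 24704 tested genes. Limma on log2(FPKM + 1) called 3 of 56 higher, where it called 2371 of all 22061 tested genes. In edgeR 3 were called lower (5.17%), with 7 at an unadjusted p under 0.05. Of all tested genes, edgeR called 2.84% higher and 2.4% lower, and 13.3% and 11.4% had an unadjusted p under 0.05. The median log2 fold change of the related enzymes was -0.34, beside 0.46 in the 53 genes above and 0.06 in all tested genes. With library totals the median of the related enzymes was 0.01 and that of all tested genes 0.42. Its sign thus depended on the scaling, and it lay below the median of all tested genes under both. Of 13 tested genes with superoxide dismutase in their description, a copper chaperone (Zm00001d002611) among them, none was called by edgeR with all libraries. Nor was any catalase (3 tested), alternative oxidase (6) or enzyme of homogentisate metabolism (5). DESeq2 called alternative oxidase3 (Zm00001d002434) and a lactoylglutathione lyase (Zm00001d039661) higher (adjusted p = 0.00609 and 0.000994). It called a homogentisate solanesyltransferase (Zm00001d006657) and a superoxide dismutase (Zm00001d031908) lower (adjusted p = 0.0153 and 0.0121). The lyase had 7.70, 3.80 and 21.8 CPM in the LW libraries, against 2.21, 0.758 and 0.584 CPM in the CW libraries (log2 fold change 3.24, SE 0.84, edgeR adjusted p = 0.0690). Scaled by totals, edgeR called this lyase higher (adjusted p = 0.0497). Without CW replicate 3, edgeR also called that transferase and that dismutase lower (adjusted p = 0.0275 and 0.0267). CW replicate 3 was the lowest CW library in both. The dismutase had 98.5, 62.2 and 127 CPM in the LW libraries and 458, 338 and 123 CPM in the CW libraries. Its groups overlapped, and with all libraries edgeR's adjusted p was 0.0975 for the dismutase and 0.0846 for the transferase. These genes are named after their values were seen. Catalase3 (Zm00001d054044), the gene with the highest mean FPKM of these, had 271, 803 and 627 CPM in the LW libraries and 721, 814 and 742 CPM in the CW libraries. LW replicate 1 was far below all others and the groups overlapped (log2 fold change -0.42, SE 0.41, edgeR adjusted p = 0.580).

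The 3 related genes that fell act on glutathione adducts of reactive carbonyls rather than on peroxides. A neighbouring pair of lactoylglutathione lyases on chromosome 5, which detoxify methylglyoxal, fell together, unlike the lyase Zm00001d039661 named above. Zm00001d015975 had 17.2, 10.9 and 8.16 CPM in the LW libraries, against 46.6, 81.2 and 67.1 CPM in the CW libraries, 5.37-fold lower (log2 fold change -2.43, SE 0.37, edgeR adjusted p = 0.0257). Zm00001d015976 had 22.6, 33.3 and 30.5 CPM in the LW libraries, against 77.5, 111 and 101 CPM in the CW libraries, 3.35-fold lower (log2 fold change -1.74, SE 0.26, edgeR adjusted p = 0.0256). The groups did not overlap in either gene, and both are described as chloroplastic. The third, Zm00001d011891, an S-formylglutathione hydrolase of formaldehyde detoxification, had 31.8, 34.97 and 36.8 CPM in the LW libraries, against 80.95, 79.9 and 84.2 CPM in the CW libraries, 2.37-fold lower (log2 fold change -1.24, SE 0.20, edgeR adjusted p = 0.0299). It entered the list because "glutathione hydrolase" lies inside its name, it does not break down glutathione, and it overlaps the annotated gene Zm00001d011892. Scaled by totals it was no longer called (log2 fold change -0.88, edgeR adjusted p = 0.0537), while the lyase pair was. Without CW replicate 3 edgeR called all 3 genes (adjusted p 0.0247 to 0.0266), without CW replicate 1 the lyase pair (adjusted p = 0.0498 for each), and without CW replicate 2, LW replicate 1, LW replicate 2 or LW replicate 3 none (adjusted p 0.0575 to 0.136).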

How the data were processed

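Leaf poly(A) RNA was isolated and sequenced per the labels' protocols, whose wording in places names another tissue and RNA fraction. FastQC 0.10.1, HISAT2 2.0, StringTie 1.3.4 and edgeR appear in the submitters' processing notes; genome build, annotation and strand setting were not given in the sources used here. Groups follow the titles; the source name of CW replicate 2 carries another number, and its title was followed.

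The authors deposited 1 table of 45953 genes with FPKM values (fragments scaled by gene length and library total, with no TMM factor) and estimated counts per library. The deposited counts are whole, but multiples of 4 made up 28.6% to 31.4% of values between 1 and 40, so they were read as estimated counts. They were tested in their deposited form, and no counting interval is given.

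EdgeR 4.0.16 (R 4.3.3) was run on all 6 libraries with TMM factors, filterByExpr at its defaults (24704 genes kept) and glmQLFit and glmQLFTest on the group. P-values were adjusted by Benjamini-Hochberg over all tested genes, with a threshold of 0.05. The SE is the size of the log2 fold change divided by the root of the F statistic. Alternatives were DESeq2 1.42.0, other scalings and filters, limma 3.58.1 on log2(FPKM + 1) or log2(FPKM + 0.1) where the mean FPKM reached 0.5, a replicate block, and leaving out each library. The scripts were tested on simulated data.

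The members and lists were chosen with earlier results of these data known. Named genes were all called members, and in each family the tested member with the highest mean FPKM and the one with the largest fitted change whose mean FPKM reached 1 in its higher group, which gave 17. Of the related enzymes they were the called ones and the one with the highest FPKM. Other members are given to complete their families and were not chosen by this rule.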

Additional observations from a re-analysis of the deposited data

How the results depend on the processing

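Genes called higher and lower in LW numbered 701 and 592 over the whole table, 5 and 1 among the 53 genes and 0 and 3 among the 58 related enzymes. DESeq2 called 2421 and 2036, 11 and 5, and 2 and 5. Scaling by totals gave 1425 and 346, 10 and 1, and 1 and 2. Limma on log2(FPKM + 1) gave 2371 and 576, 11 and 1, and 3 and 3; with a pseudocount of 0.1 it gave 2023 and 536, 11 and 1, and 2 and 3, and without a filter 1779 and 372, 10 and 1, and 0 and 3. Median-of-ratios factors (699 and 581, 5 and 1, 0 and 3) and no filter on low counts (692 and 565, 4 and 1, 0 and 3) changed little. Over the 6 fits without 1 library, the whole table gave 0 to 1678 higher and 0 to 1287 lower, the 53 genes 0 to 5 and 0 to 3, and the related enzymes 0 higher in each fit and 0 to 6 lower. Without CW replicate 2, where edgeR called 0 genes, 2906 were higher and 2156 lower at an unadjusted p under 0.05.

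No pairing of the samples by replicate number was seen. Deviations of same-numbered LW and CW libraries correlated at -0.00688, -0.0055 and -0.162, and no library correlated best with its own number. With the replicate block edgeR called 2 genes higher and 1 lower, and 0 and 0 among the 53 (13 and 4 at an unadjusted p under 0.05) and 0 and 0 among the related enzymes.

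The fitted change of Zm00001d029238 (-0.20) reversed to 0.14 scaled by totals, 0.14 in limma on log2(FPKM + 1) with or without a filter, and 0.15 with a pseudocount of 0.1; it was never called. The median log2 fold change of the 53 genes (0.46) was 0.81 scaled by totals, 0.54 and 0.63 in limma with a pseudocount of 1 and 0.1, and 0.27 to 0.49 without 1 library. Of the members low in counts, Zm00001d029085 had an SE of 1.94. The cause of these differences was not tested.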
